A study of Rattus norvegicus with 20 samples.

Results

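The natriuretic peptide genes Nppa and Nppb were followed in both heart ventricles, right (RV) and left (LV), of male rats after monocrotaline (MCT) or saline. Both were chosen by their gene identifiers, ENSRNOG00000008176 for Nppa and ENSRNOG00000008141 for Nppb, and are 2 of the 30452 genes in the count table. Monocrotaline, an alkaloid of Crotalaria plants, damages the endothelium of lung vessels and is given to rats to model pulmonary hypertension. The animals received 60 mg/kg MCT or saline once they weighed 250 g, and were killed when a discomfort score of at least 7 was reached. The 20 libraries formed 4 groups of 5, 1 for each ventricle and treatment (RV MCT, LV MCT, RV saline and LV saline). The sources used here do not give strain, age, genotype or the time between injection and death. They also do not say whether each library of a group was a different rat, so a p-value here reflects variation between libraries, which may be technical.

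Nppa encodes the precursor of atrial natriuretic peptide and Nppb that of B-type natriuretic peptide. Both hormones are released by heart muscle cells under stretch and act through a receptor that makes cyclic GMP, which lowers vessel tone and increases salt and water loss by the kidney. In the adult heart the atria are the main source of Nppa, while ventricular expression of both genes is known as a marker of load on the ventricle. The labels say that the ventricles were separated from the atria before RNA extraction. Because the table gives no symbols, markers of ventricular or atrial muscle could not be examined. In bulk tissue, a change in the number of cells that express a gene and a change in RNA per cell cannot be told apart.

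In the RefSeq annotation of assembly GRCr8, Nppb and Nppa lie next to each other on the forward strand of chromosome 5, with 0 annotated genes between them. Their promoters are shown because the 2 neighbouring genes did not follow each other in every comparison below. Positions are counted upstream from the transcript start that the RefSeq promoter table uses. Each stretch begins 250 bases upstream and ends before the annotated gene start, at chr5:163711934-163712183 for Nppa and at chr5:163699758-163699954 for Nppb. The stretch of Nppb is shorter, 197 bases, because its annotated gene start lies upstream of that transcript start. Positions in Nppb would therefore be nearer to the annotated gene start than the values given. Capitals mark matches, on either strand, to the motifs searched.
Nppa: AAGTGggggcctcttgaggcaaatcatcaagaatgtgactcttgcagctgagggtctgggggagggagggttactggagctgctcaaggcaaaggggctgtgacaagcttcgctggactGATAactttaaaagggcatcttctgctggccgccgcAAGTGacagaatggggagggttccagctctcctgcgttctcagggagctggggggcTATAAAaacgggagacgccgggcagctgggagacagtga
Nppb: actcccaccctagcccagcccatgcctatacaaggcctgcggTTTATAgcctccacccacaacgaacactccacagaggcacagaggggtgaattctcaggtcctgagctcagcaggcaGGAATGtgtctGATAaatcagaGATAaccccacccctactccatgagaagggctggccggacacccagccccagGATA

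The motifs were searched over the 300 bases that the table holds for each gene, of which 50 lie after the transcript start used for counting. GATA, the core letters bound by GATA factors, occurred once in Nppa, 131 bases upstream, and at 3 places in Nppb, 120, 109 and 57 bases upstream. It was present in 60.5% of the 33469 promoters of the table. TATAAA was read 39 bases upstream of Nppa on the forward strand and 208 bases upstream of Nppb on the reverse strand, and 14.2% of all promoters held it. The M-CAT motif CATTCC was read on the reverse strand of Nppb, 131 bases upstream, and was held by 14.2% of promoters. The Nkx core AAGTG began 250 and 95 bases upstream of Nppa and lay 45 bases after the start of Nppb on the reverse strand, outside the stretch shown, and 46.2% of promoters held it. The AP-1 motif TGAGTCA, the T-box motif GGTGTG and the CArG box were not among the letters of either window, and were in 4.63%, 17.9% and 1.64% of promoters. These matches are descriptions of the sequence and do not show that a factor binds there.

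Levels are given as CPM, the reads of a gene per 1000000 reads of the library after scaling by the trimmed mean of M-values (TMM). The libraries held from 3272420 to 9227104 counts. On the first principal component of all 10929 tested genes, which held 31.99% of the variance, the saline libraries scored from -31.0 to -9.61. Inside that range lay LV MCT replicate 3 (-21.0) and RV MCT replicate 4 (-30.3), whereas 8 MCT libraries lay above it. Values without these 2 libraries are given beside the MCT results. The description codes of the libraries look like dates and read as May or June for replicates 1 to 3 and as November for replicates 4 and 5 of each group. In both saline groups, replicates 4 and 5 carried the same code apart from a suffix on replicate 5.

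By mean CPM, Nppa ranked at place 35 of all genes in RV MCT and at place 50 in LV MCT, and at places 304 and 194 in RV and LV saline. In RV saline it stood at 55.6, 19.4, 134, 871 and 350 CPM in replicates 1 to 5. In RV MCT it stood at 4099, 4260, 691, 725 and 658 CPM. Replicates 1 and 2 of RV MCT stood several-fold above the other 3, and RV saline replicate 4 was above those 3, so the groups overlapped. In LV saline Nppa was at 343, 531, 376, 677 and 526 CPM, and in LV MCT at 1360, 1174, 810, 1035 and 2356 CPM. All 5 LV MCT libraries lay above all 5 LV saline libraries.

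Nppb was ordered differently. In RV saline it was at 56.9, 64.3, 69.6, 114 and 104 CPM in replicates 1 to 5, and in RV MCT at 609, 694, 166, 95.6 and 164 CPM. As for Nppa, replicates 1 and 2 of RV MCT stood above the other 3, and only replicate 4 reached down into the saline range. In LV saline it was at 539, 562, 804, 586 and 797 CPM, and in LV MCT at 252, 262, 571, 276 and 458 CPM. LV MCT replicate 3, one of the libraries that lay among the saline samples, was the only LV MCT library to overlap LV saline.

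**Figure D1:**
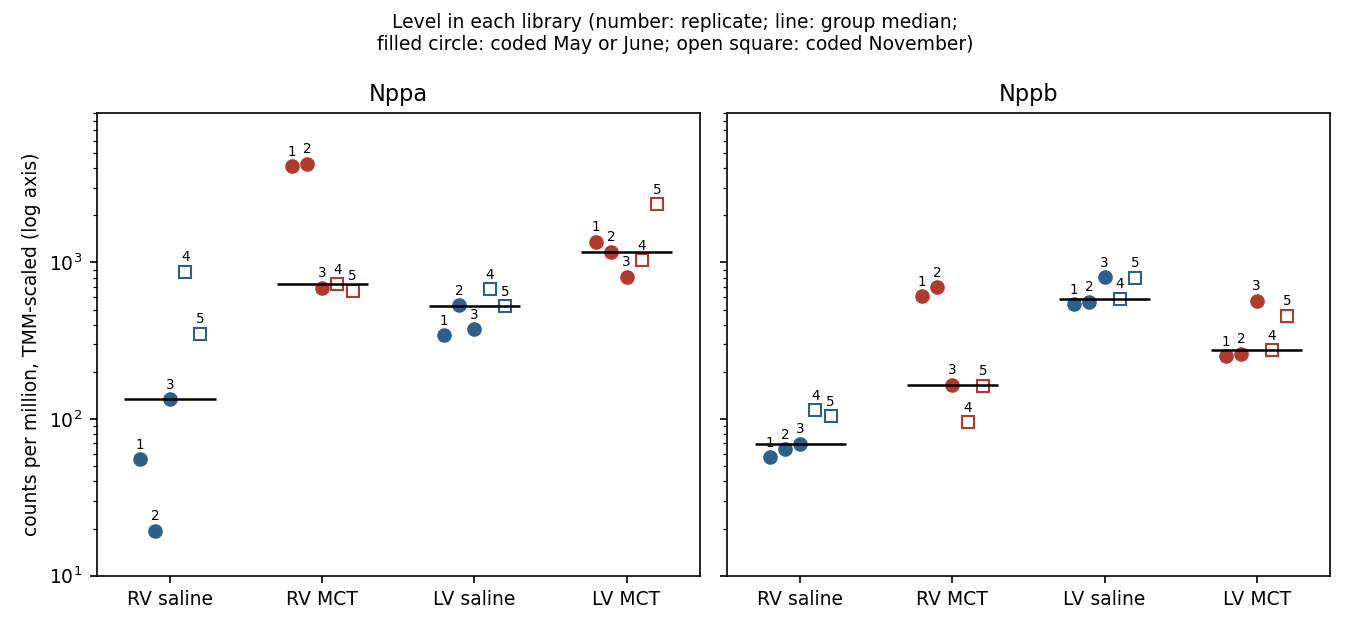
CPM (log axis) of Nppa (left) and Nppb (right) in each of the 20 libraries, by group; points are libraries numbered by replicate, lines are group medians, filled circles carry May or June codes and open squares November codes. Nppb in RV saline (56.9 to 114 CPM) lies below every LV saline library (539 to 804 CPM), and RV MCT replicates 1 and 2 lie above the other RV MCT libraries for both genes.

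By group mean, Nppa was highest in RV MCT, at 2086 ± 1912 CPM (SD, n = 5), followed by LV MCT at 1347 ± 598, LV saline at 491 ± 135 and RV saline at 286 ± 351. Neighbours in this order overlapped, apart from LV MCT and LV saline. Nppb was highest in LV saline, at 657 ± 131 CPM, followed by LV MCT at 364 ± 144, RV MCT at 346 ± 282 and RV saline at 81.8 ± 25.5. Each of these neighbours overlapped. The range reached from 70 Nppa counts in RV saline replicate 2 (exact 95% Poisson interval 54.6 to 88.4, counting error only) to 31858 in RV MCT replicate 2. There Nppa took 0.4997% of all counts and was the gene with the 16th most counts.

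In the RV, Nppb passed the threshold as higher after MCT in the fit of all 20 libraries, and Nppa did not. The fitted difference of Nppa was the larger of the 2, and both adjusted p-values lay near the threshold. For Nppb the log2 fold change was 2.08 (SE 0.43), a 4.22-fold higher level, with an edgeR adjusted p of 0.044. Among all 10929 genes tested, 0.238% were called higher in this comparison at an adjusted p under 0.05, and the median log2 fold change was 0.01. For Nppa the log2 fold change was 2.87 (SE 0.75), 7.29-fold, with an edgeR adjusted p of 0.066. By size of change Nppa ranked at place 18 of the genes tested and Nppb at place 71, whereas by p Nppb stood at place 24 and Nppa at place 173. The SE of Nppa was several times the median SE of all genes, 0.24.

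The Nppb call in the RV lay near the threshold. With 1 library left out its log2 fold change ran from 1.67 to 2.32. Without any 1 LV saline library it stayed at 2.08, though the call was lost (edgeR adjusted p from 0.053 to 0.062). The call was kept without LV MCT replicate 3 or 5 or without RV MCT replicate 3, 4 or 5. It was lost when any one of the other 15 libraries was left out, with an edgeR adjusted p of up to 0.17 (without RV MCT replicate 2, in a fit that called 3 genes). Nppa in turn passed without RV MCT replicate 3, 4 or 5, with edgeR adjusted p of 0.044, 0.021 and 0.0498. Those fits called 2.27%, 6.34% and 1.31% of all genes tested. Without RV saline replicate 4 the Nppa log2 fold change was 3.89 (edgeR adjusted p = 0.085). The Nppb call was also lost with the month of the code as a term (2.02, edgeR adjusted p = 0.068) and without a filter on low counts (2.07, edgeR adjusted p = 0.077). It was lost too with only the RV groups fitted (2.09, edgeR adjusted p = 0.17) and with the replicate number as a block (1.69, edgeR adjusted p = 0.16), where 0 genes were called. DESeq2 (2.09, adjusted p = 0.00037) and limma voom (1.58, adjusted p = 0.036) kept the call. Here and below, limma voom was run with a quality weight for each library. They also called Nppa (adjusted p = 0.010 and 0.049), with 402 and 253 of the 10929 genes tested called. Without both libraries that lay among the saline samples, the log2 fold changes were 3.08 for Nppa (edgeR adjusted p = 0.018) and 2.32 for Nppb (edgeR adjusted p = 0.0013), in a fit that called 9.68% of all genes. Those libraries were chosen because they looked unlike the other MCT libraries, so these values are no estimate of the effect.

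**Figure D2:**
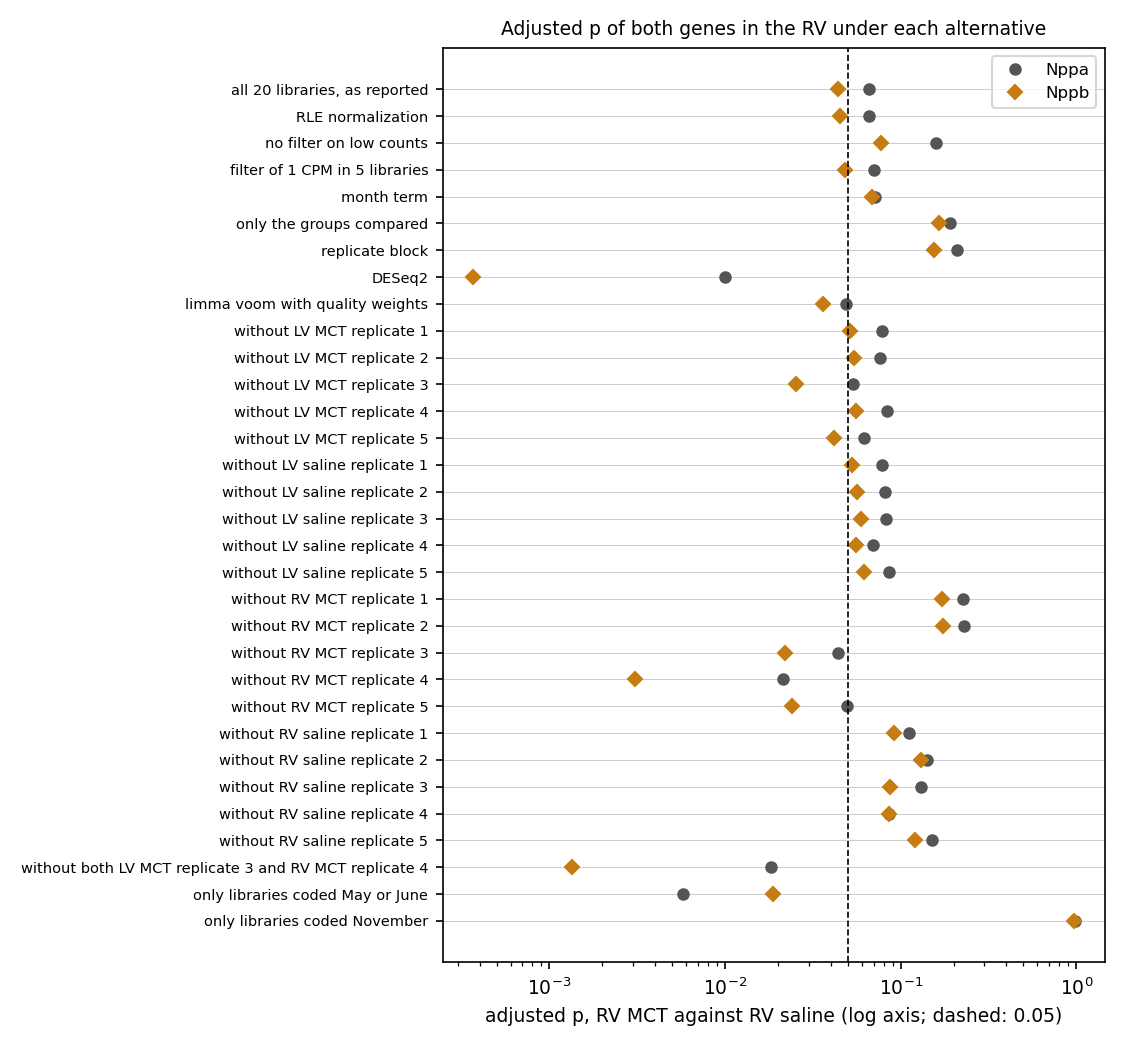
Adjusted p (log axis) for RV MCT against RV saline of Nppa (circles) and Nppb (diamonds) under each alternative, 1 row per setting; the dashed line marks 0.05. Most points lie near the line: with all 20 libraries the values are 0.066 for Nppa and 0.044 for Nppb, and with only the November libraries they are 0.98 and 0.97.

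The RV difference was large in the libraries coded May or June and small in those coded November. This split was chosen after seeing the data, so its p-values, here and below, are descriptions only. Within May and June, 3 libraries a group, the log2 fold change was 5.46 for Nppa (SE 0.75, edgeR adjusted p = 0.0057) and 2.96 for Nppb (SE 0.47, edgeR adjusted p = 0.019), where 1.73% of all genes were called. Within November, 2 libraries a group, it was 0.18 for Nppa (SE 0.45, edgeR adjusted p = 0.98) and 0.25 for Nppb (SE 0.35, edgeR adjusted p = 0.97). Nppa in RV saline was at 19.4 to 134 CPM with May or June codes and at 350 and 871 CPM with November codes. In RV MCT the 2 highest libraries both carried May codes, while the June library, replicate 3, stood with the November libraries for both genes. Whether the code itself changes the response was not tested, and November also holds RV MCT replicate 4.

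In the LV, the fitted differences of the 2 genes had opposite signs after MCT, and neither passed the threshold. The Nppa log2 fold change was 1.46 (SE 0.72, 2.75-fold, edgeR adjusted p = 0.21) and that of Nppb was -0.85 (SE 0.42, 0.553-fold, edgeR adjusted p = 0.21). Over all genes 9.52% were called in either direction in the LV, and the median log2 fold change was 0.03. The LV groups of Nppa did not overlap, which was so, with MCT higher, for 3.21% of the genes tested. When only the LV libraries were fitted, so that the wide RV spread did not enter, the Nppa difference of 1.46 had an SE of 0.28 and passed (edgeR adjusted p = 0.015), while Nppb, at -0.85 with an SE of 0.25, did not (edgeR adjusted p = 0.052), and 8.29% of genes were called. With limma voom, which called 26.5% of all genes in this comparison, the Nppb difference was -1.20 (adjusted p = 0.0068). Without both LV MCT replicate 3 and RV MCT replicate 4, the LV log2 fold change was 1.59 for Nppa (edgeR adjusted p = 0.15) and -1.08 for Nppb (edgeR adjusted p = 0.052).

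Unlike the RV values, the LV values were alike in both sets of codes. The Nppa log2 fold change was 1.41 within May and June and 1.49 within November (edgeR adjusted p = 0.40 and 0.099). For Nppb it was -0.85 and -0.92 (edgeR adjusted p = 0.46 and 0.16).

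**Figure D3:**
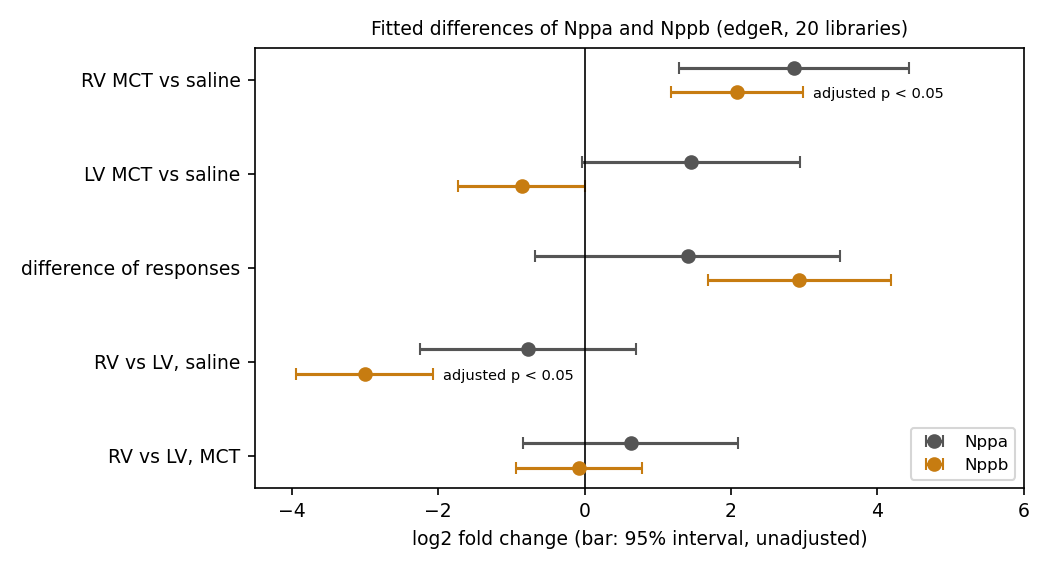
Log2 fold changes of Nppa (grey) and Nppb (orange) in the 5 comparisons fitted over all 20 libraries; bars are unadjusted 95% intervals. Nppb differs in sign between the RV (2.08) and the LV (-0.85), and after saline it is lower in the RV by 3.01 on the log2 scale.

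The responses of the ventricles were compared by the difference of both log2 fold changes. For Nppb the RV response exceeded that of the LV by 2.93 (SE 0.60, unadjusted 95% interval 1.69 to 4.18). It had the smallest p of all genes tested, 7.75e-05, and the edgeR adjusted p was 0.85. In this comparison 0% of genes were called by edgeR. An unadjusted p under 0.05 was held by 305 of the 10929 genes, fewer than the share of 0.05 that chance alone would give on average. DESeq2 called 1 gene, or 0.00915%, which was Nppb (difference 2.96, adjusted p = 0.0063), and limma voom called 0, with an adjusted p of 0.094 for Nppb. For Nppa the difference was 1.41 (SE 0.9997, unadjusted 95% interval -0.67 to 3.49, edgeR adjusted p = 0.9999). The interval of Nppa covers both no difference and one as large as that of Nppb. Without both libraries that lay among the saline samples the difference was 3.39 for Nppb (edgeR adjusted p = 0.045) and 1.49 for Nppa (edgeR adjusted p = 0.99). That fit called 1 of 11114 genes in this comparison. The Nppa difference was 4.05 within May and June (edgeR adjusted p = 0.86), -1.31 within November (edgeR adjusted p = 0.98) and 2.44 without RV saline replicate 4. That of Nppb was 3.81 within May and June (edgeR adjusted p = 0.15) and 1.17 within November (edgeR adjusted p = 0.98).

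After saline, Nppb was lower in the RV than in the LV, and was the gene with the smallest p in that comparison. The log2 fold change was -3.01 (SE 0.45, edgeR adjusted p = 0.0080), so that the RV held 0.125 times the LV level. Of all genes tested, 0.0183% were called lower in the RV. The groups did not overlap, which was so, with the RV lower, for 1.77% of genes. Within May and June the value was -3.34 (edgeR adjusted p = 0.018, with 0.101% of genes called) and within November -2.67 (edgeR adjusted p = 0.088), and without RV saline replicate 1 it was -2.91 (edgeR adjusted p = 0.0503). Nppa showed -0.78 after saline (SE 0.71, unadjusted 95% interval -2.25 to 0.70, edgeR adjusted p = 0.87). It was -1.81 without RV saline replicate 4, -2.60 within May and June, 0.020 within November and -1.77 with limma voom, and passed in none of these (adjusted p from 0.25 to 0.9999).

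After MCT the fitted log2 difference of Nppb between RV and LV was -0.07 (SE 0.41, unadjusted 95% interval -0.93 to 0.79). It was 0.47 within May and June, -1.49 within November (SE 0.35, edgeR adjusted p = 0.63) and 0.39 without both libraries that lay among the saline samples. For Nppa the difference was 0.63 (SE 0.71, unadjusted 95% interval -0.83 to 2.10), with 1.45 within May and June and -1.29 within November. Over all 20 libraries the edgeR adjusted p was 0.99996 for both genes, and 0% of genes were called by edgeR, DESeq2 or limma voom in this comparison. With edgeR 203 of the 10929 genes had an unadjusted p under 0.05, again fewer than chance alone would give on average. The intervals still allow a difference in either direction.

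RV and LV libraries of the same treatment and number carry matching codes, but the labels do not state that they share an animal. In MCT replicates 1 and 2, Nppb was 2.41 and 2.65 times as high in the RV library as in the same-numbered LV library. In MCT replicates 3, 4 and 5 the ratio was 0.290, 0.346 and 0.357. After saline the RV to LV ratio of Nppb ran from 0.0866 to 0.194 over the 5 numbers, lower than in any MCT number. For Nppa it was 3.01 and 3.63 in MCT replicates 1 and 2, and 0.852, 0.700 and 0.279 in MCT replicates 3, 4 and 5. After saline the Nppa ratio ran from 0.0365 in replicate 2 to 1.29 in replicate 4.

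**Figure D4:**
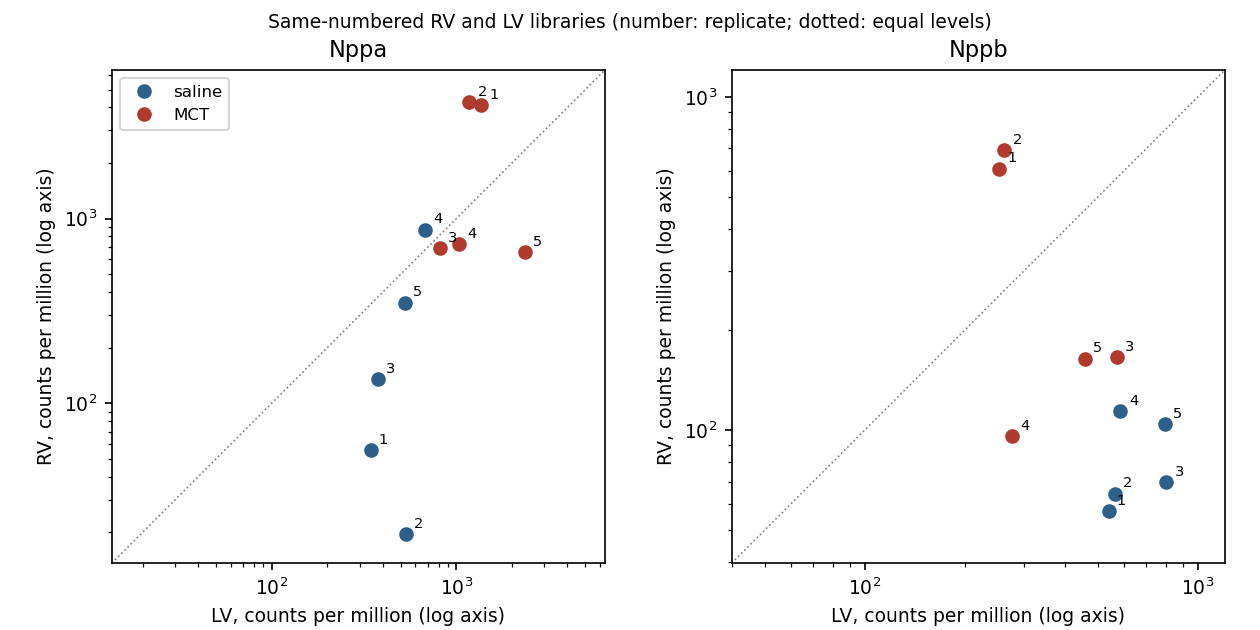
RV CPM against LV CPM (both log axes) of same-numbered libraries for Nppa (left) and Nppb (right), saline in blue and MCT in red; the dotted line marks equal levels. For Nppb all 5 saline points lie well below the line (RV to LV ratio 0.0866 to 0.194), MCT replicates 1 and 2 lie above it, and MCT replicates 3 to 5 lie below it.

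The count of Nppb per count of Nppa within a library does not depend on depth or scaling. The libraries read only the 3' ends of transcripts, and reads per transcript may differ between genes, so the ratio is compared between groups and not read as a molar ratio. In LV saline it was 1.57, 1.06, 2.14, 0.865 and 1.51 in replicates 1 to 5, and in LV MCT 0.186, 0.223, 0.705, 0.267 and 0.195. All LV MCT libraries lay below all LV saline libraries, replicate 3 coming closest. The mean log2 ratio differed by -2.32 between the LV groups, and by -2.66 without LV MCT replicate 3.

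In RV MCT the ratio was 0.149, 0.163, 0.240, 0.132 and 0.249. It thus stayed within a narrow range, although the level of Nppa ran over 6.47-fold and that of Nppb over 7.26-fold among these libraries. In RV saline the ratio was 1.02, 3.31, 0.518, 0.131 and 0.298, and the RV groups overlapped. The mean log2 ratio differed by -1.70 between the RV groups, by -1.07 without RV saline replicate 2 and by -2.24 without RV saline replicate 4. The 2 RV saline libraries with November codes had the lowest ratios of their group, 0.131 and 0.298, just below and just above the RV MCT range. Within May and June the RV difference of the log2 ratio was -2.75, and within November it was -0.12, while in the LV it was -2.31 and -2.33.

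**Figure D5:**
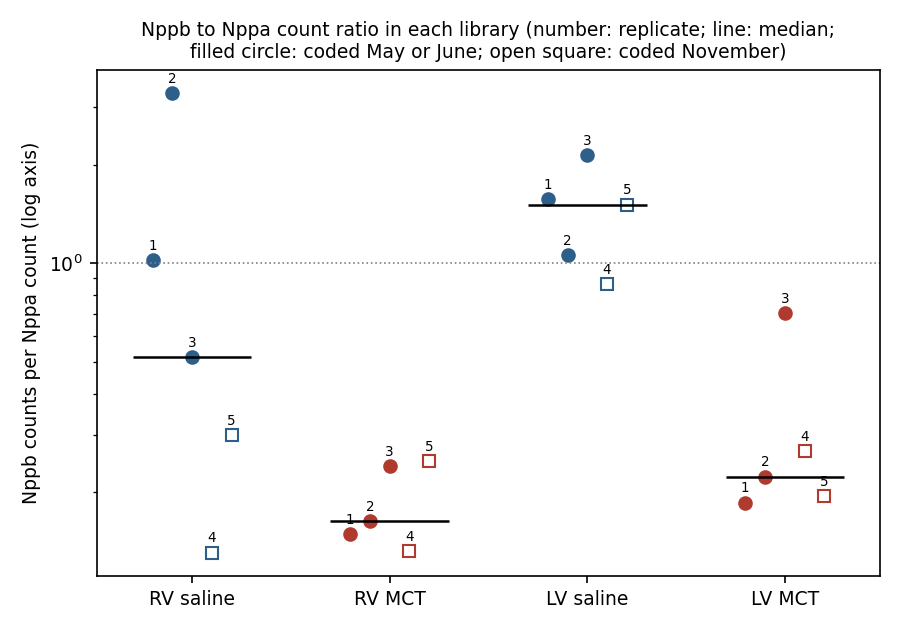
Nppb counts per Nppa count (log axis) in each library, by group; points are libraries numbered by replicate, lines are medians, and the dotted line marks equal counts. RV MCT libraries lie between 0.132 and 0.249, whereas RV saline libraries spread from 0.131 to 3.31.

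Among the members, Nppa in RV saline varied most between libraries of a group. The SD of its log2 CPM there was 2.15, where the median over the 10929 genes was 0.300 and 1 gene had a higher SD. In RV MCT the SD was 1.42 for Nppa and 1.27 for Nppb, with 130 and 224 genes above them. In LV saline it was 0.40 for Nppa and 0.28 for Nppb, the latter below the median of all genes, 0.333. In LV MCT it was 0.58 for Nppa and 0.54 for Nppb, both above the median of 0.371. For Nppb in RV saline it was 0.44, also above the median there. The widest spread was thus in the RV, for Nppa under both treatments and for Nppb after MCT.

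Genes with the most similar pattern were sought among 6888 others with a mean log2 CPM of at least 3, by the Pearson correlation of log2 CPM over the 20 libraries, which include the groups themselves and possibly shared animals. For Nppa it was ENSRNOG00000020371, with a correlation of 0.85 and 0.70 after the group means were subtracted. It ran from 9.43 CPM in RV saline replicate 2 to 21.3 CPM in RV MCT replicate 1. For Nppb it was ENSRNOG00000064233, with 0.89 and 0.77, which ran from 370 CPM in RV saline replicate 1 to 831 CPM in RV MCT replicate 2. Neither was called in the RV or the LV (edgeR adjusted p from 0.14 to 0.38). The 2 members had a correlation of 0.61 with each other over all libraries and of 0.65 after the group means were subtracted. Of the 6888 other genes, 282 were more like Nppa than Nppb was, and 112 were more like Nppb than Nppa was.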

How the data were processed

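The authors deposited raw read counts per Ensembl gene, 1 column per library. Per the labels' protocols these were QuantSeq 3' libraries sequenced as paired 150 bp reads in 2 runs. The submitters' processing notes name STAR 2.7.10a, HTSeq 0.11.3 and the builds mRatBN7.2 and rn6, with no order or role. Strand setting and annotation release were not given in these sources, so overlapping genes could share counts. The table pairs no ID with a symbol and the RefSeq table (GRCr8) held 0 of its IDs, so the 2 symbols came with the identifiers, and the pathway and marker lists fixed by symbol were not tested.

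All genes were fitted with edgeR 4.0.16 in R 4.3.3 (TMM, filterByExpr, robust quasi-likelihood test of 4 group means over 20 libraries, Benjamini-Hochberg threshold 0.05). Of 30452 genes 10929 passed, with both members among them, holding 99.8% of counts. The SE came from the F statistic. Log2 CPM used a prior count of 2 and log2 ratios a count of 0.5 added to each gene. DESeq2 1.42.0 and limma 3.58.1 voom were alternatives. The members, lists and the genes named (both members and the most similar gene to each) were chosen with earlier results of these data known, so the ratio of the members is given without the test planned for it.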

Additional observations from a re-analysis of the deposited data

Results flagged for a closer look

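In 12 sets of 5 values, which were the CPM of each gene and the ratio of Nppb to Nppa counts in each group, a library was picked out when its gap to the next took over 0.71 of the range of its set. Chance picks about 1 set in 20 if the values are normally distributed, and the values were used here without a log. The ratio of 0.705 in LV MCT replicate 3 lay far above the other LV MCT libraries (0.186 to 0.267). The ratio of 3.31 in RV saline replicate 2 lay far above the other RV saline libraries (0.131 to 1.02), in the library with only 70 Nppa counts. As a log2 ratio it was 1.72, with replicate 1 next at 0.03 and replicate 4 lowest at -2.94. On that scale the gap was a smaller part of the range and did not reach the limit.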

How the results depend on the processing

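The number of libraries and their spread, more than depth, limit these results, since all but 1 of the 40 member counts were above 200. Nppa in the RV (2.87) passed with DESeq2 (2.88), limma voom (3.19) and the May or June libraries (5.46). Leaving out 1 library gave 2.44 to 3.89. Nppb in the RV (2.08) passed with DESeq2 (2.09) and limma voom (1.58). It no longer passed without a filter on low counts (2.07, edgeR adjusted p = 0.077), with a month term (2.02, 0.068), with only the RV groups (2.09, 0.17) or with only November libraries (0.25). Leaving out libraries gave 1.67 to 2.32. In the LV, Nppa passed with only the LV groups (1.46) and Nppb with limma voom (-1.20). The Nppb difference of responses (2.93) passed with DESeq2 (2.96) and without LV MCT replicate 3 and RV MCT replicate 4 (3.39). With 1 library left out it was 2.54 to 3.17. Nppb in RV against LV after saline was -2.67 in November, short of the threshold, and -3.15 to -2.91 with 1 library left out.

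Signs turned for Nppa with only the November libraries, in the difference of responses (-1.31), RV against LV after saline (0.020) and RV against LV after MCT (-1.29). For Nppb after MCT, RV against LV was 0.47 with only May or June libraries, -1.49 with only November libraries (sign kept), 0.39 without both libraries named above and -0.48 to 0.17 with 1 left out. None of these turned values passed. For all values in this and the preceding paragraph the cause was not tested. Alternatives that use one set of codes or leave out both libraries were chosen after seeing the data.

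For MCT against saline, the replicate block joined same-numbered MCT and saline libraries of a ventricle, which came from differently treated animals. The RV value was then 3.09 for Nppa and 1.69 for Nppb, whose call was lost (edgeR adjusted p = 0.16). For RV against LV, the block joined same-numbered RV and LV libraries of a treatment, and Nppa after saline was -1.70. No other call of the members changed. Deviations of same-numbered MCT and saline libraries correlated from -0.32 to 0.22, and those of RV and LV libraries from -0.35 to 0.59. Correlations between differently numbered libraries were not calculated, so these values cannot decide whether same-numbered RV and LV libraries are pairs. The numbers were not taken as pairs in the main fit. The labels do not state that same-numbered RV and LV libraries share an animal, and MCT and saline libraries cannot share one.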
